A study of Branchiostoma lanceolatum with 6 samples.

Results

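*Tcf15-like* (BLAG10000671) is a basic helix-loop-helix (bHLH) transcription factor gene of the Mediterranean amphioxus, *Branchiostoma lanceolatum*, and is described here over the cells of the 21 hpf neurula. It is 1 of the 27073 genes counted in the single-cell atlas of this stage. It was chosen because earlier results of these cells placed it in the neural plate and the tailbud, so its levels are given as a description with no test. Wild-type embryos raised at 19 °C until 21 hpf (hours post-fertilization) were dissociated and pooled, live single cells were sorted into multi-well plates, and their RNA was counted as unique molecular identifiers (UMIs, 1 per captured RNA molecule) by MARS-seq. The series has 2 samples of single cells, whose cells could not be told apart by name, so that all cells were treated as 1 sample. It also has 4 samples of ATAC-seq, which were not used here.

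The table held 14586 cells with 31802996 UMIs from 40 plates, with 223 to 382 cells per plate and a median of 1585 UMIs per cell, and no cell name occurred more than once. The authors grouped the cells into 176 metacells, clusters of cells of alike profile, and 17 cell types, and these groups are used throughout. A level is the number of UMIs of a gene per 10,000 UMIs of all genes, summed over the cells of a group, with its exact 95% Poisson interval. All intervals cover counting error only, since no cell type was sampled in labelled replicates.

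Factors of the bHLH class bind DNA as dimers, commonly with a widely expressed E protein such as Tcf12, while Id proteins lack the basic region and hold E proteins away from DNA. In mouse and chick, Tcf15 (paraxis) is a gene of the paraxial mesoderm and the somites and takes part in making the somite an epithelium. Amphioxus forms its somites and extends its neural tube from a tailbud at the posterior end of the body. The name *Tcf15-like* is the one used for this gene in the study, and its relation to the vertebrate gene was not examined here.

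*Tcf15-like* RNA was concentrated in the neural plate and the tailbud. Of its 4322 UMIs, 3843 (88.9%) came from 4 cell types that together held 1771 cells, 12.1% of the atlas: the neural tailbud, the tailbud, the Di-Mesencephalic primordium (like the anterior archencephalon, a part of the presumptive cerebral vesicle, the anterior end of the central nervous system) and the remaining neural plate, labelled neural. The neural tailbud had the highest level, 14.0 UMIs per 10,000 (interval 13.1 to 14.9, 211 cells). The tailbud followed with 11.9 (11.0 to 12.8, 279 cells), the Di-Mesencephalic primordium with 8.81 (7.14 to 10.8, 38 cells) and the neural cells with 6.28 (6.01 to 6.56, 1243 cells). With plates pooled, these 4 types kept this order beyond counting error, each neighbouring pair having a ratio whose interval lay above 1. These intervals do not cover unevenness between cells or plates. The closest of these pairs was the neural tailbud over the tailbud, with a ratio of 1.18 (1.07 to 1.30). The medians over plates had the other order, 10.7 in the neural tailbud (35 plates) and 11.5 in the tailbud (40 plates). The last pair did not hold within plates: the Di-Mesencephalic primordium was 1.40-fold (1.13 to 1.72) above the neural cells when plates were pooled, and on the 15 plates that held its cells the ratio was 1.014, higher on 7.

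**Figure D1:**
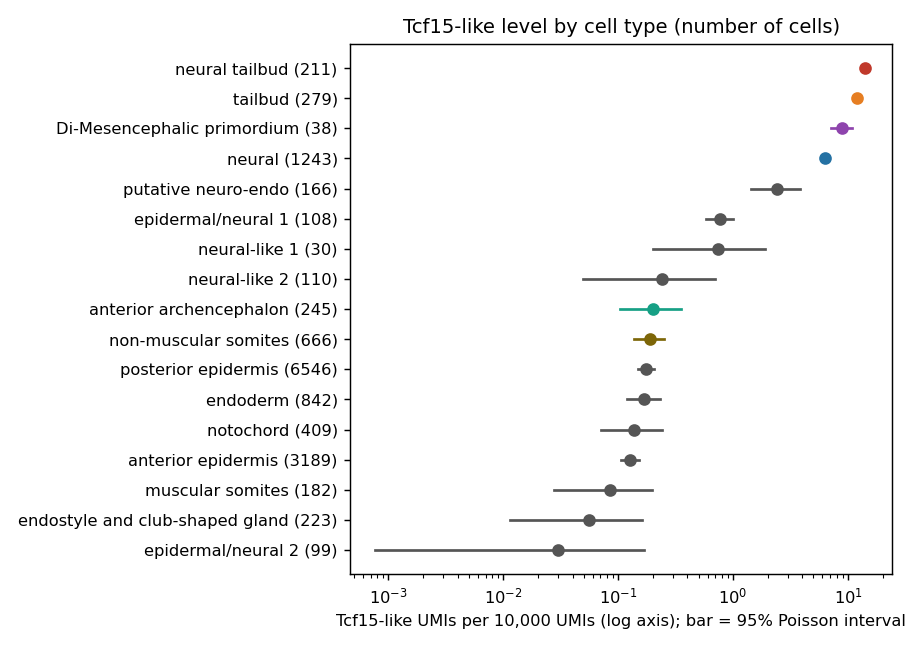
*Tcf15-like* UMIs per 10,000 UMIs (log axis) for each of the 17 cell types, with the number of cells in parentheses; points are levels and bars exact 95% Poisson intervals. The neural tailbud, tailbud, Di-Mesencephalic primordium and neural cells lie between 6.28 and 14.0, and the somites lie beside the posterior epidermis near 0.2.

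Among all genes with at least 50 UMIs in a type, ordered by the level in that type over the level in all other cells, *Tcf15-like* was number 3 of 2876 in the neural tailbud, where it was 13.1-fold (12.2 to 14.1) above the rest of the atlas. It was number 27 of 2275 in the tailbud, with 10.2-fold (9.37 to 11.1), and number 75 of 6506 in the neural cells, with 7.89-fold (7.43 to 8.38). It was number 18 of 391 in the Di-Mesencephalic primordium, with 6.61-fold (5.34 to 8.09). These places describe the choice of the gene.

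Outside these types the level was lower by more than an order of magnitude in most of the embryo. A pair of small types lay between. The 166 putative neuro-endo cells, the shallowest of the atlas with a median of 415.5 UMIs, had a level of 2.40 (1.42 to 3.8) from 18 UMIs. The 108 cells of the type epidermal/neural 1, the deepest with a median of 6757.5 UMIs, had 0.774 (0.587 to 1.003) from 57 UMIs. In both, markers of several other types were found together. Epidermal/neural 1 had the posterior list at 10.4, the neural differentiation list at 15.3 and the epidermal list at 7.74 UMIs per 10,000. The putative neuro-endo cells had 7.75, 18.2 and 4.14. In epidermal/neural 1 the differentiation genes with at least 50 UMIs had a median fold of 1.11, against 1.13 over all genes. The part of mixed wells in the levels of these types was not tested. From there down, from epidermal/neural 1 at 0.774 to the type epidermal/neural 2 at 0.0301, no pair of neighbours in the order differed beyond counting error, although types farther apart did: epidermal/neural 1 was 4.44-fold (3.23 to 6.03) above the posterior epidermis, and the anterior epidermis had 0.727 (0.568 to 0.929) of its level.

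The somites, the tissue of vertebrate Tcf15, stood with the epidermis. The 666 non-muscular somite cells had a level of 0.188 (0.137 to 0.251) from 45 UMIs, and the 182 muscular somite cells 0.0851 (0.0276 to 0.199) from 5 UMIs, against 0.175 (0.149 to 0.203) in the 6546 cells of the posterior epidermis. The ratio of non-muscular somites to posterior epidermis was 1.07 (0.756 to 1.502), and the ratio of neural cells to non-muscular somites was 33.5 (24.9 to 46.0). The notochord had 0.137 (0.0706 to 0.239) and the endoderm 0.169 (0.119 to 0.231).

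A single cell carried much of the somite count. It lay in somite metacell 25 and held 10 of the 45 UMIs, with a depth of 3356 UMIs close to the median of its type. It also held 49 UMIs of the 11 genes of the posterior list and 1 UMI of the 10 genes of the somite list. Without this cell the somite level was 0.146 (0.102 to 0.203). Of the 8 somite metacells, metacell 24 had the highest level, 0.724 (0.385 to 1.24, 13 UMIs in 62 cells), and it also had the highest summed level of the posterior list among them, 71.1 UMIs per 10,000, where the other 7 ranged from 5.14 to 34.4. Within plates metacell 24 was 2.60-fold above the other somite metacells (5.02-fold pooled), higher on 4 of 20 plates. Metacell 21 had no UMI in 89 cells, which allows a level of up to 0.202 (the level of 3 UMIs, as for other counts of 0 here).

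The share of cells with a UMI also set the 4 types apart from the rest, but in another order than the levels. At least 1 *Tcf15-like* UMI was found in 74.4% of neural tailbud cells (exact binomial interval 68.0 to 80.2, median depth 3352 UMIs), 45.2% of tailbud cells (39.2 to 51.2, median 1638), 60.5% of Di-Mesencephalic cells (43.4 to 76.0, median 2827) and 45.3% of neural cells (42.5 to 48.1, median 2401). In the posterior epidermis, which served as the background, the share was 2.29% (1.94 to 2.68, median 1246). Since depth differed, the share expected after thinning each cell to 500 UMIs was computed as well. It was 42.5% in the neural tailbud (no cell left out), 31.1% in the tailbud (7 left out), 27.2% in the Di-Mesencephalic primordium (1 left out) and 21.7% in the neural cells (30 left out), against 0.940% in the posterior epidermis (548 left out) and 1.007% in the non-muscular somites (14 left out). At equal depth the tailbud thus stood above the neural cells, which it matched without thinning.

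Within the expressing types *Tcf15-like* was uneven from cell to cell. In the neural tailbud 54 of 211 cells had no UMI, where 6.14 would be expected if all its cells held the gene at a single rate and differed in depth alone, while 72 cells had more than 5 UMIs and these carried 76.8% of the type's count. In the tailbud 153 of 279 cells had none (50.7 expected) and 40 had more than 5, with up to 31 in a cell, the highest count of the atlas. In the neural cells 680 of 1243 had none (352.2 expected) and 113 had more than 5. In the posterior epidermis the cells without a UMI numbered 6396, close to the 6382 expected, and no cell had more than 3.

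**Figure D2:**
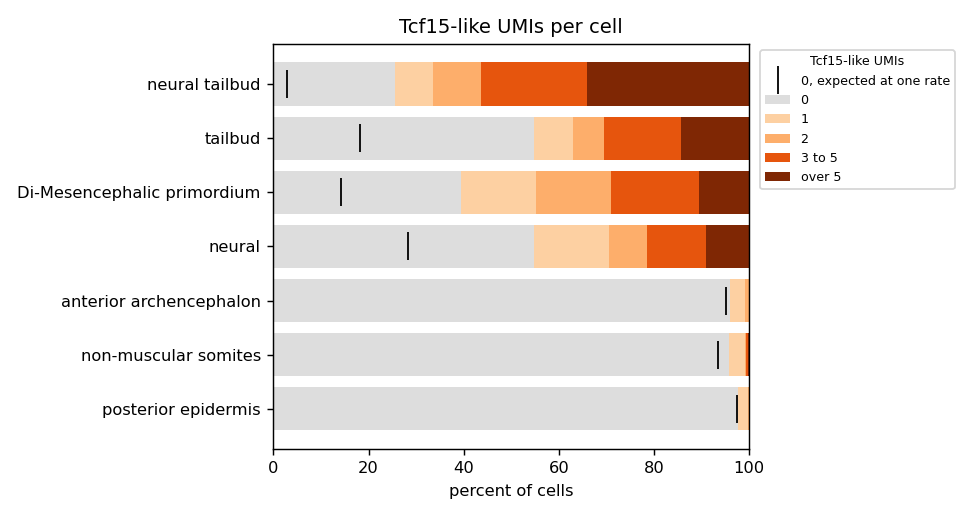
Percent of cells of each type with 0, 1, 2, 3 to 5 or more than 5 *Tcf15-like* UMIs; the black tick marks the percent of cells at 0 expected at a single rate for the type. In the 4 expressing types the cells at 0 exceed the tick, by the most in the tailbud, where 54.8% were at 0 and 18.2% were expected, whereas in the posterior epidermis the tick meets the end of the grey bar.

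This unevenness was in part a difference between metacells. The neural tailbud had 2 metacells, and in metacell 51 the level was 24.8 (23.1 to 26.5, 108 cells), the highest of all 176, with a UMI in 104 of its cells. In metacell 52 it was 5.17 (4.49 to 5.92, 103 cells), with a UMI in 53. The 4 tailbud metacells split in the same way, into metacells 31 with 21.3 (19.3 to 23.4) and 29 with 13.8 (11.7 to 16.2), and metacells 30 with 4.68 (3.39 to 6.31) and 32 with 3.85 (2.99 to 4.89). Cells without a UMI were also more numerous than expected within every one of the 22 metacells of the 4 types, for example 49 of 85 cells in metacell 29, where 16.9 were expected at its own rate, and 50 of 103 in metacell 52, where 17.3 were expected.

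**Figure D3:**
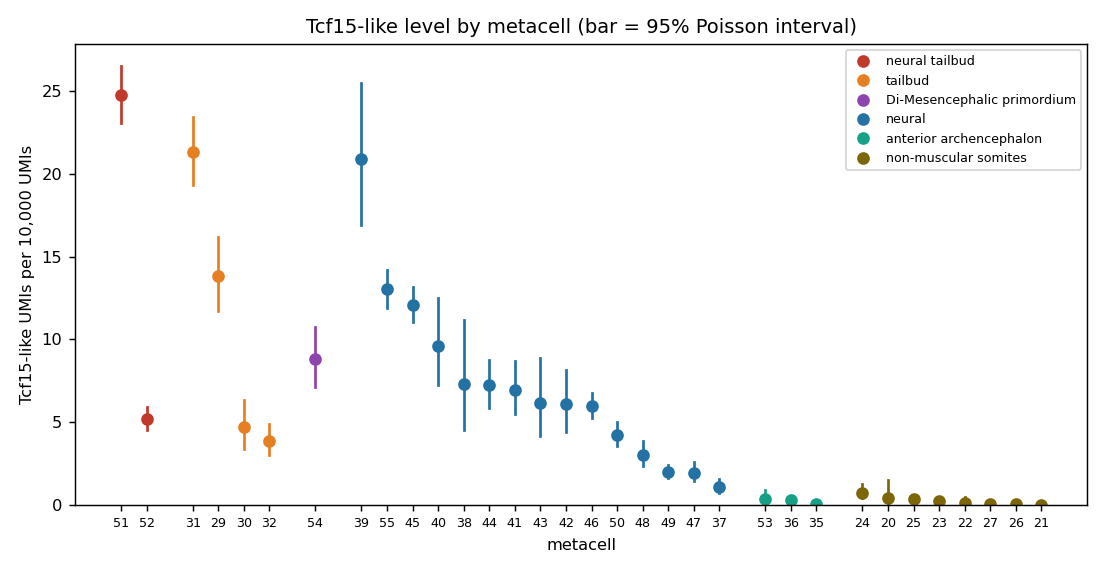
*Tcf15-like* UMIs per 10,000 UMIs in each metacell of 6 cell types, ordered by level within a type; points are levels and bars exact 95% Poisson intervals. Metacell 51 of the neural tailbud is highest at 24.8 and its partner 52 is at 5.17, and the 15 neural metacells run from 20.9 down to 1.05.

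The metacells of the neural tailbud also differed in genes of the neural plate and of the posterior body. Metacell 51, with more *Tcf15-like*, had 6.92 UMIs per 10,000 of *Soxb1c* (BLAG14000923, a SoxB factor of neural progenitors) against 0.803 in metacell 52, a ratio of 8.62 (5.93 to 12.9). *Hox3* (BLAG12000125), a Hox gene of the neural tube behind the cerebral vesicle, was at 3.61 against 0.627, and *Cdx* (BLAG06000695), a homeobox gene of the posterior body, at 10.3 against 2.63. Metacell 52 had more of *Wnt1* (BLAG17000294), a signalling ligand of the tailbud, with 6.42 against 1.38, and of *Otp* (BLAG02001062), a homeobox gene, with 4.11 against 0.765. *Vasa* (BLAG03002073), a germline and tailbud gene, was alike in both, with a ratio of 0.947 (0.820 to 1.09). Of the 2876 genes with at least 50 UMIs over both metacells, 6.43% were 2-fold or more higher in metacell 51 and 5.42% lower, and *Tcf15-like* stood at number 19 by fold. Of the 11 genes of the posterior list, 8 passed the minimum, 2 were higher (*Cdx* and *Hox3*) and 3 lower (*Wnt1*, *Otp* and *Bolla*). Of the 11 neural differentiation genes 5 passed the minimum, and 3 were higher in metacell 51 and 0 lower: *Elav* with 2.67-fold, *Ebf3* (BLAG03002176), a factor of neuronal differentiation, with 2.62-fold and *Hey-related* (BLAG01000808) with 2.47-fold.

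However, these 2 metacells came largely from different plates. Of the 108 cells of metacell 51, 85 lay on plates with no cell of metacell 52, and 8 plates held cells of both. On these 8 plates *Tcf15-like* was higher in metacell 51 in 6, and the ratio within plates (combined over plates by the Mantel-Haenszel method) was 1.88 against the pooled ratio of 4.79 (4.11 to 5.61). The ratio of *Soxb1c* was likewise smaller within plates, 1.91, and that of *Hox3* was 2.51, each higher in metacell 51 on 3 of the 8, and those of *Elav*, *Ebf3* and *Hey-related* were 1.13, 1.24 and 2.57, whereas *Wnt1* and *Otp* were lower in metacell 51 on all 8 plates, with ratios of 0.113 and 0.246. The plate and the metacell could thus be told apart only on a small part of the neural tailbud cells.

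In the tailbud the split did not follow the plates. The pairs were set by their *Tcf15-like* level, so its ratio is a description. Metacells 29 and 31 together had a level of 18.6 and metacells 30 and 32 of 4.14, a ratio of 4.50 (3.66 to 5.57), and within the 31 plates that held both the ratio was 5.07, with the first pair higher on 27. *Tcf15-like* was number 4 by fold among 2275 genes, of which 3.25% were 2-fold or more higher in this pair and 2.9% lower. Of the posterior list, all 11 genes passed the minimum and 4 were higher: *Bolla* (BLAG10000256, ratio 4.60), a zf-RING protein gene (BLAG12000626, 4.20), *Cdx* (2.13) and *Vasa* (2.08). *Ebf3* was 6.16-fold higher (3.97 to 9.99). The genes lower in metacells 29 and 31 included *Gsc* (BLAG04000892), with a ratio of 0.237 (0.178 to 0.314), and *Foxaa* (BLAG04001273), with 0.180 (0.112 to 0.278), both genes of axial mesoderm and floor plate. *Wnt1* was at 22.7 and 23.97 in the 2 pairs, a ratio of 0.948 (0.850 to 1.06).

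In the neural plate all 15 metacells had more *Tcf15-like* than any of the 119 epidermal metacells, whose levels reached 0.909. The neural metacells ranged from 1.05 to 20.9, with a median of 6.17. Metacell 39 was the highest, with 20.9 (16.9 to 25.5), but it was shallow, with 50 cells at a median of 867.5 UMIs, 12 of them from a single plate. The list of posterior genes was also highest there, at 18.1 UMIs per 10,000 summed over its genes, where it was 5.62 in all neural cells. Metacell 38 had nearly as much of this list, 16.7, with *Tcf15-like* at 7.30 (4.52 to 11.2). By *Tcf15-like* level, metacell 39 was followed by metacells 55 with 13.0 (11.9 to 14.2) and 45 with 12.1 (11.0 to 13.2). Metacells 45 and 55 together held 1000 of the 2053 neural UMIs. Metacells 48, 49 and 47 had 3.03, 1.98 and 1.94.

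The lowest neural level, 1.05 (0.688 to 1.54), was found in metacell 37, which carried the genes of differentiating neurons. *Insm* (BLAG04000958), a zinc-finger factor of neuronal differentiation, was at 11.2 UMIs per 10,000 in metacell 37, and in the other neural metacells it did not exceed 2.90. *Elav* (BLAG13000238), a neuronal RNA-binding protein gene, was at 56.3 there. The list of 11 neural differentiation genes summed to 161.9 UMIs per 10,000 in metacell 37 and to 54.7 in all neural cells. On each of the 29 plates that held cells of metacell 37, its *Tcf15-like* level was below that of the other neural cells of the plate, with a ratio within plates of 0.122, against a pooled ratio of 0.157 (0.102 to 0.231).

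The differences among the other neural metacells depended more on the plates. If all neural cells of a plate had the same level, metacell 45 would be at 10.4 and metacell 49 at 3.09, from their plates alone, since 133 of the 143 cells of metacell 45 lay on plates with no cell of metacell 49. Against the other neural cells of the same plates, metacell 45 had a ratio of 1.31 (2.22 when plates were pooled), higher on 9 of 20 plates, and metacell 49 one of 0.438 (0.279 pooled), higher on 2 of 18. Metacell 55 had a ratio of 2.01 within plates (2.42 pooled), higher on 19 of 26, and metacell 39 one of 3.23 (3.44 pooled), higher on 11 of 19. Metacell 47 had one of 0.174 (0.295 pooled), higher on 3 of 22. Metacell 52 of the neural tailbud, which was below the neural cells when plates were pooled (0.823, 0.710 to 0.9503), was above them within plates (1.32), higher on 12 of 22.

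Metacells 45 and 55 were paired with their levels known, and metacell 39, the highest at 20.9, was left out of this contrast. In metacell 39 the differentiation list summed to 25.2 and the posterior list to 18.1 UMIs per 10,000. The pair (12.5 UMIs per 10,000) had 7.20-fold (6.12 to 8.51) more *Tcf15-like* than metacells 37, 47 and 49 together (1.74). Within plates it had 8.47-fold more, higher on 22 of 29. Of 4941 genes, 5.46% were 2-fold or more higher in the pair and 4.33% lower. All 6 genes of the floor plate list passed the minimum and 5 were higher, among them *Nkx2.1* (BLAG04001574) with 17.4-fold (7.39 within plates), *Foxaa* with 12.1-fold (6.36 within plates) and the BMP antagonist *Chordin* (BLAG11000811) with 6.73-fold (5.60 within plates). Over all 15 neural metacells this list had little relation to *Tcf15-like*. Pearson's r of log2 levels had a median of 0.14, with 0.18 for *Nkx2.1* (rho -0.09) and 0.05 for *Chordin*. Of the 4 genes of the neural plate border list 3 were higher, including *Msx* (BLAG03001048) with 6.97-fold (3.92 within plates), and of the 6 posterior genes that passed 4 were higher, including *Hox3* with 6.29-fold (3.33 within plates). Of the 4 anterior neural genes that passed, 2 were higher (*Otx* and *Fezf*) and 1 lower (*Ctfp1*). Of the 5 progenitor genes 2 were higher (*Soxb1c* and *Soxb2*) and 1 lower (*Delta*). Of the 11 neural differentiation genes 0 were higher and 5 lower, including *Islet* (BLAG02001562), a factor of motor and other neurons, with a ratio of 0.0947 (0.0505 within plates), and *Insm* with 0.148 (0.0505 within plates). This did not hold for each metacell of the contrast. The differentiation list summed to 161.9 UMIs per 10,000 in metacell 37, 61.7 in metacell 47 and 32.9 in metacell 49. It was at 76.5 in metacell 45 and 28.7 in metacell 55.

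The plates themselves differed in the *Tcf15-like* level of the same cell type. In neural cells the level by plate ran from 1.33 to 15.7, with a median of 5.56 and quartiles of 3.15 and 8.49, and the interval of 16 of 40 plates held the pooled level, against 34 of 40 for the posterior epidermis. These intervals do not cover the unevenness from cell to cell described above. The neural level was highest on plates 19, 7, 32, 24 and 8 and lowest on plates 6, 39, 33, 35 and 36. Over the 35 plates with cells of both types, the neural and the neural tailbud levels had a Spearman rho of 0.58 (Pearson r of 0.49 on log2 levels), the neural and tailbud levels had one of 0.35 over 40 plates (Pearson r of 0.21), and over all 40 plates the neural and the posterior epidermal levels had one of 0.12 (Pearson r of 0.15), as a description, since types of a plate share its reagents and sequencing. From the makeup of each plate in neural metacells alone, its neural level was expected between 2.90 and 10.9, and 23 plates had an interval that held this expected level. The embryos were pooled before sorting, and what sets the plates apart was not tested.

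**Figure D4:**
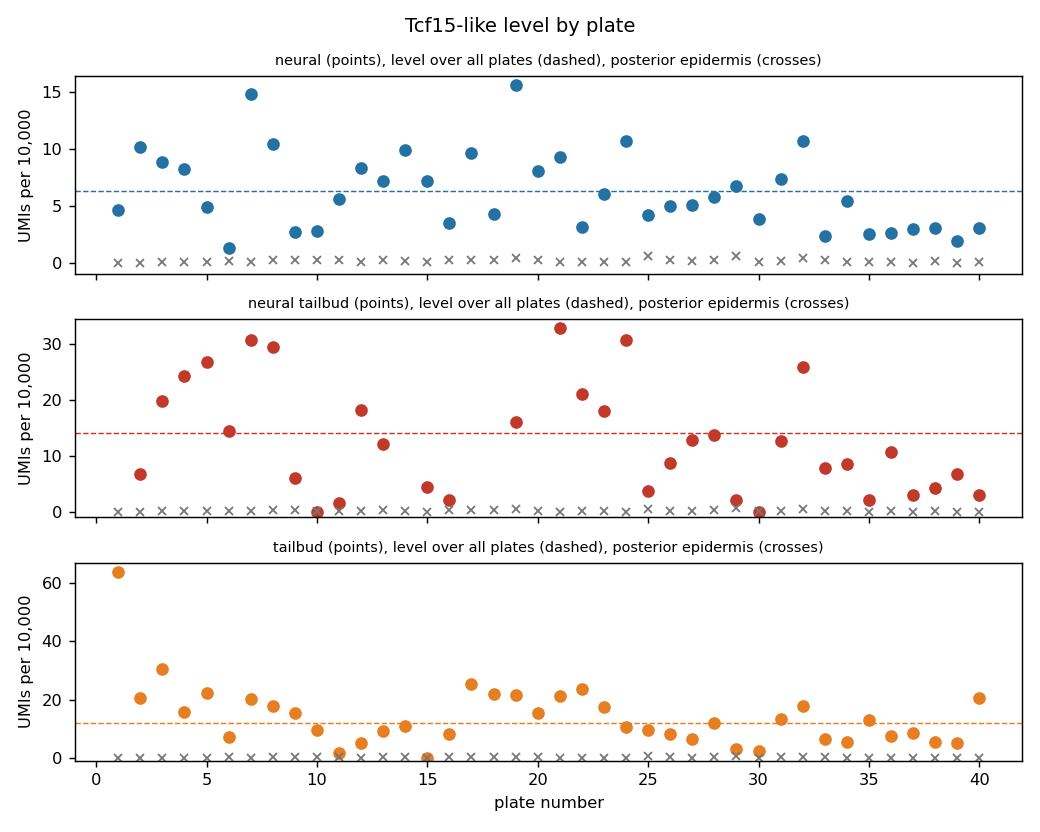
*Tcf15-like* UMIs per 10,000 UMIs on each of the 40 plates in neural, neural tailbud and tailbud cells (points), with the level over all plates (dashed line) and the posterior epidermis of the same plate (crosses); 5 plates held no neural tailbud cell. The neural cells lie above the posterior epidermis on all 40 plates, with levels from 1.33 to 15.7.

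The contrast between tissues held on the plates. Neural cells were above posterior epidermal cells on 40 of 40 plates, with a ratio within plates of 37.5 against 35.97 pooled, and tailbud cells were above them on 39 of 40. Neural tailbud cells were above the neural cells of the same plate on 25 of 35 plates (ratio within plates 2.21, pooled 2.23) and tailbud cells on 35 of 40 (1.79, pooled 1.89).

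Within the presumptive cerebral vesicle *Tcf15-like* was divided between the territories. The anterior archencephalon had a level of 0.201 (0.104 to 0.351) from 12 UMIs in 245 cells, and its 3 metacells had 0.342, 0.254 and 0.0489, none of them above the epidermal range. The Di-Mesencephalic primordium was 43.9-fold (23.99 to 87.8) above it, and 53.2-fold within plates. *Otx* (BLAG04000893), a homeobox gene of the forebrain and midbrain in vertebrates, was found in both, at 3.40 (2.39 to 4.68) in the Di-Mesencephalic primordium and 2.88 (2.46 to 3.34) in the archencephalon, and *Soxb1c* was at 2.66 (1.78 to 3.82) and 3.05 (2.62 to 3.52). *Hox3* had no UMI in the Di-Mesencephalic cells, which allows a level of up to 0.275, and was at 0.1004 in the archencephalon, against 0.783 in the neural cells.

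Over the 15 neural metacells the level of *Tcf15-like* tended to rise with the genes of the posterior list. By Pearson's r it tended to fall with those of the neural differentiation list, with exceptions among metacells. Pearson's r of log2 levels was above 0 for all 11 posterior genes, from 0.17 for *Otp* to 0.78 for the zf-RING protein gene, with 0.72 for *Hox3* (Spearman rho 0.75) and 0.68 for *Cdx* (rho 0.65). It was below 0 for all 11 neural differentiation genes, from -0.06 for *Neurogenin* to -0.64 for *Elav* (rho -0.58), with -0.63 for *Insm* (rho -0.50) and -0.61 for *Prox* (rho -0.56). The neural progenitor list was mixed. Its SoxB genes had 0.77 (*Soxb1c*, rho 0.67) and 0.58 (*Soxb2*, rho 0.66), whereas *Soxc* had 0.27, *Delta* 0.03 and *Pou3fl* -0.31. In the border list *Snail* had 0.71 and *Pax3/7* -0.21. All 6 genes of the floor plate list were above 0, from 0.05 to 0.39 with a median of 0.14 (*Netrin* 0.09, rho -0.07). A value above 0 was not particular to the posterior list, since 19 of the 26 bHLH genes with a value had one. The share over all genes was not computed, here or for the 21 metacells below.

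These values changed with the set of metacells. Over the 21 metacells of the neural plate, neural tailbud, Di-Mesencephalic primordium and archencephalon r was above 0 for all 11 posterior genes (*Hox3* 0.73, rho 0.71) and below 0 for 8 of the 11 neural differentiation genes, with -0.55 for *Insm*, -0.11 for *Elav* and 0.50 for *Ebf3*. *Soxb1c* had 0.48 (rho 0.52). The metacells share plates, and the level was also lower in metacells of deeper cells (rho -0.47 with mean UMIs per cell over the 15), so these values are descriptions of these clusters.

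**Figure D5:**
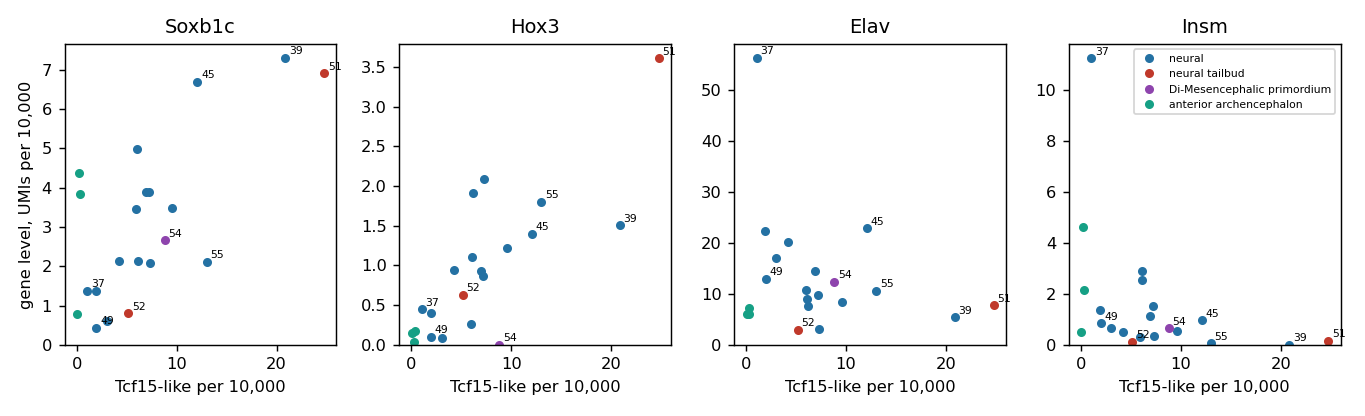
Level of *Soxb1c*, *Hox3*, *Elav* and *Insm* (vertical, UMIs per 10,000) against that of *Tcf15-like* (horizontal, UMIs per 10,000) in 21 metacells of 4 neural cell types; each point is a metacell and some are numbered. *Insm* and *Elav* peak in metacell 37, at 11.2 and 56.3, where *Tcf15-like* is at 1.05, and of the plotted metacells *Hox3* is highest in metacell 51, at 3.61.

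Among single neural cells, the number of cells with both *Tcf15-like* and another gene was compared with the number expected from cells of like depth (10 strata of UMIs per cell). The proneural and neuronal genes *Elav*, *Neurogenin* and *Hey-related* met it in somewhat fewer cells than depth alone would give, with ratios of 0.924, 0.901 and 0.943. Of the 11 neural differentiation genes, 10 had a ratio below 1, with a median of 0.888. The lowest was that of *Insm*, which met *Tcf15-like* in 31 cells where 79.1 were expected (0.392), and *Nhlh1/2* (BLAG04001532), a bHLH gene of young neurons, met it in 9 cells (16.8 expected). All 11 posterior genes had a ratio above 1, with a median of 1.45, *Cdx* meeting it in 93 cells where 60.8 were expected and *Hox3* in 91 (60.6 expected). The share of all genes with a ratio above or below 1 was not computed.

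The other lists lay closer to 1. Of the progenitor genes, *Soxb1c* met *Tcf15-like* in 246 cells (187.1 expected), *Soxc* had a ratio of 1.02 and *Pou3fl* of 1.11, and the Notch ligand *Delta* (BLAG04000614) met it in 19 cells (33.7 expected). The 6 floor plate genes ranged from 1.07 to 1.42, *Pax3/7* of the border had 0.974 and *Tcf12* 0.991. Part of these departures lay between metacells. When the expected number was taken within metacells, a comparison added after seeing the data, the median ratio was 1.21 for the posterior list, 0.942 for the differentiation list and 1.03 for the floor plate list, with 1.34 for *Cdx*, 1.16 for *Soxb1c* and 0.535 for *Insm*. Within plates these medians were 1.32, 0.890 and 1.23. For the other differentiation genes named above the ratios within metacells were near 1: 0.949 for *Elav*, 0.998 for *Neurogenin* and 0.986 for *Hey-related*. *Nhlh1/2* met *Tcf15-like* in 9 cells where 10.05 were expected within metacells (0.896).

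As a family, the bHLH genes were not concentrated in the cell types of *Tcf15-like*, the share called in the neural tailbud, the tailbud and the neural cells being near or below that over all genes. The bHLH list was taken from the variable transcription factors shown in the study, which were chosen on these same cells, so it is not independent evidence of any direction. It held 27 genes beside *Tcf15-like*. In the neural tailbud 9 of the 27 had at least 50 UMIs and 0 of these were 2-fold or more above all other cells, where 21.2% of all 2876 genes were, and their median fold was 1.13 against 1.47 over all genes. At 1.5-fold or more 1 was called, *Hes1* (BLAG11000894, a Notch target, 1.86-fold), with 47.7% of all genes. In the tailbud 11 passed and 2 were higher (background 21.4%): *Myc* (BLAG02001551), a growth regulator, with 2.33-fold, and *Twist-like* (BLAG19000659), a gene of mesoderm, with 2.92-fold. In the neural cells 14 passed and 4 were higher (background 24.5%): the proneural gene *Neurogenin* (BLAG15000404), 18.9-fold, *Nhlh1/2*, 11.8-fold, *Hey-related*, 6.17-fold, and *Hypp459* (BLAG01001685), 3.09-fold. In the Di-Mesencephalic primordium 2 passed and 1 was higher (background 28.9%), *Tcf12*, with 2.18-fold. Single members did vary with *Tcf15-like* among metacells. Over the 21 neural plate metacells *Myc* had an r of 0.79 (rho 0.78) and *Hes1* BLAG11000894 of 0.64 (rho 0.72), where the median over the 26 bHLH genes with a value was 0.10. With plates pooled, *Hes1* BLAG11000894 was also higher in metacell 51 over 52 (2.63-fold), in tailbud metacells 29 and 31 over 30 and 32 (2.49-fold) and in neural metacells 45 and 55 over 37, 47 and 49 (2.90-fold). The other genes labelled *Hes1* did not share this. Over the 21 metacells their r ran from 0.02 to 0.50. Among those that passed the minimum, the ratios in these contrasts ran from 0.758 to 3.18, 0.864 to 1.63 and 0.780 to 1.94.

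Unlike *Tcf15-like*, the bHLH genes *Neurogenin* and *Nhlh1/2* were found in the archencephalon and hardly in the tailbud or neural tailbud. In the neural cells they were found as *Tcf15-like* was, at 1.13 and 0.364 UMIs per 10,000. *Hey-related* lacked so sharp a contrast, with 3.01 in the archencephalon, 1.92 in the neural tailbud and 1.03 in the tailbud. *Neurogenin* was 8.52-fold above all other cells in the archencephalon, with a level of 1.27 UMIs per 10,000, and it was at 0.0689 in the neural tailbud and without a UMI in the tailbud, which allows up to 0.0525. *Nhlh1/2* was at 0.569 in the archencephalon and without a UMI in the neural tailbud, which allows up to 0.0414. Several bHLH genes were high in the somites, where *Tcf15-like* was low, but not all of them were low in the tailbud. *Twist-like* was 2.92-fold above all other cells in the tailbud. *Hand2* (BLAG06000941) was at 2.30-fold and *Twist2* (BLAG10000675) at 2.20-fold there, both from fewer UMIs than the minimum. *Neurod4* was at 0.288-fold and *Mrf1* at 0.369-fold in the tailbud. *Twist-like* was 28.1-fold and *Neurod4* (BLAG07000549) 26.1-fold above all other cells in the non-muscular somites, and the myogenic factor *Mrf1* (BLAG18000529) was 257-fold above in the muscular somites, where *Tcf15-like* was at 0.06-fold.

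The candidate partner and inhibitor genes had milder patterns. *Tcf12* (BLAG05001223), the E protein gene, was at 4.04 UMIs per 10,000 in the neural tailbud, 3.64 in the tailbud, 4.09 in the neural cells, 6.15 in the Di-Mesencephalic primordium, 3.58 in the archencephalon and 4.97 in the non-muscular somites, so that it was found in tissues with and without *Tcf15-like*. *Id2* (BLAG02000864) was at 2.32 in the neural tailbud, 0.34-fold of its level in all other cells, at 4.84 in the neural cells and at 10.7 in the archencephalon. Within the neural tailbud it was higher in metacell 51 than in metacell 52, by 3.55-fold when plates were pooled and 1.39-fold within plates, where 4 of the 8 plates had it higher.

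The genes whose levels over all 176 metacells were most like that of *Tcf15-like* were sought among 9621 genes with at least 200 UMIs, by Pearson's r of log2 levels with a pseudocount of 0.5 UMIs per 10,000. The most alike was the zf-RING protein gene (BLAG12000626) with an r of 0.83, followed by BLAG18000144 (0.81), *Netrin* (BLAG09000812, a guidance cue of the floor plate, 0.80), BLAG07001001 (0.79), BLAG02001433 (0.79), BLAG09001124 (0.78), BLAG13000799 (0.78), BLAG01000922 (0.78), BLAG02000499 (0.78) and BLAG01001051 (0.77). Only the first and the third of these carry a name in the sources used here. The archencephalon set several of them apart: *Netrin* had 2.33 UMIs per 10,000 there, BLAG07001001 had 5.86 and BLAG02000499 had 19.7, whereas the zf-RING protein gene had 0.117, BLAG18000144 0.0669, BLAG01000922 0.0502 and BLAG01001051 0.0502. Most of the 176 metacells are epidermal, and 3 of these 10 genes stayed among the 10 most alike over the 57 metacells that are not.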

How the data were processed

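Live cells of dissociated, pooled embryos were sorted with exclusion of doublets by scatter. The authors mapped MARS-seq reads to the *B. lanceolatum* genome with STAR, assigned them to exons and deposited UMI counts per gene and cell, and clustered the cells with Metacell. A deposited table of fold changes per metacell, the authors' own comparison, was not used. No doublet caller was run here. Strand handling of the counting is not given in the sources used here.

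From the counts, UMIs were summed per cell type, metacell or plate (the plate number was read from the cell names) and divided by all UMIs of the group. With 1 sample, no test was made. Intervals are exact (Poisson for levels, Clopper-Pearson for shares, conditional binomial for ratios, 95%). A gene with no UMI in the reference was set to 3 UMIs. Shares at 500 UMIs are hypergeometric expectations per cell. The text names *Tcf15-like*, genes of marker lists taken from the study, and the 10 genes most alike. Members and lists were chosen with earlier results of these data known. Scripts were tested on simulated data. Python 3.11.15, numpy 2.4.6 and scipy 1.17.1 were used.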

Additional observations from a re-analysis of the deposited data

How the results depend on the processing

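The order of the 4 expressing types was the same under all alternatives tried on their pooled levels. By plate it was not: the Di-Mesencephalic primordium was close to the neural cells within plates. The median plate level of the tailbud was also above that of the neural tailbud. No paired analysis was possible because the cells carry no replicate number and no test was made; plates were used as blocks in the ratios within plates. Taken as the mean over cells, the level was 15.8 UMIs per 10,000 in the neural tailbud and 7.09 in the neural cells, and the ratio to the tailbud was 1.31 for the neural tailbud, with 1.70 for the tailbud over the neural cells. As the mean over metacells the levels were 14.96 (neural tailbud), 10.9 (tailbud) and 7.16 (neural cells). Without the 50 most abundant genes in the total they were 16.7, 14.2 and 7.54. Leaving out each plate in turn gave 12.5 to 14.96 for the neural tailbud, 5.94 to 6.46 for the neural cells, 11.5 to 12.4 for the tailbud and 7.46 to 9.33 for the Di-Mesencephalic primordium. With a threshold of 1.5-fold, 1 bHLH gene was called in the neural tailbud. Of the 10 genes most alike, 5 were shared with the list by Spearman's rho, 9 with a pseudocount of 0.1 and 3 without epidermal metacells. The ratios within plates were added after seeing the data; of these, that of metacell 52 over the neural cells turned from 0.823 to 1.32, the cause not being tested. As the regularized geometric mean over the median type, the fold of *Tcf15-like* was 8.01 in the neural tailbud, 5.52 in the tailbud, 4.96 in the Di-Mesencephalic primordium and 3.64 in the neural cells. At these depths levels near 0.2 UMIs per 10,000, as in the somites and the archencephalon, could not be told from the epidermal background.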
